A study of Mus musculus with 20 samples.

Results

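The BCL2 family genes described here are the anti-apoptotic members Bcl2, Bcl2l1 and Mcl1, the effector Bak1, and the BH3-only members Bcl2l11, Bid, Bad, Bbc3 and Bmf. They were taken as all probe sets annotated to one of these 9 gene symbols, which gave 31 probe sets of the 45101 on the array, and 9 genes of 18193 that had a probe set of their own. Expression was measured on 20 mouse arrays hybridised with amplified RNA from cells sorted from the bone marrow of animals aged 8 to 14 weeks. Of these, 16 arrays were from wild-type C57bl/6 animals. On 2 arrays each they held hematopoietic stem cells (HSC), multipotent progenitors (MPP), the lymphoid-primed fraction of those (LMPP), pro-B cells and CD4 T cells, and on 3 arrays each common lymphoid progenitors (CLP) and granulocyte-monocyte progenitors (GMP). The remaining 4 arrays held mature natural killer (NK) cells of strain 129, with genotype Rag2-- Ets1-- on 2 arrays and Rag2-- Ets1++ on 2, called Ets1-- and Ets1++ NK cells below. Both NK genotypes thus lacked Rag2, which developing lymphocytes need to assemble antigen receptors, so these animals make no mature B or T cells. Every comparison of NK cells with another population also spans a difference in strain and in Rag2.

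BCL2 proteins set the threshold for mitochondrial apoptosis. Bcl2, Bcl2l1 (BCL-XL) and Mcl1 hold the effectors BAK1 and BAX in check at the outer mitochondrial membrane, and BH3-only proteins such as Bcl2l11 (BIM), Bid, Bad, Bbc3 (PUMA) and Bmf bind the survival proteins or activate the effectors. In blood cells Mcl1 is known to be needed for stem cell survival, and Bcl2l11 for removing surplus lymphocytes after cytokine loss and during selection. Many of these proteins are controlled after translation, and only RNA was measured here.

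The promoters of the 3 survival genes and of Bcl2l11, the members that most of the results below turn on, are shown first. Each sequence comes from RefSeq (GRCm38.p6), reads 5′ to 3′ on the gene's own strand and runs from 250 bases before an annotated start to 50 bases after it. Capitals mark the ETS core CCGGAA, read as TTCCGG on the opposite strand, and the FOXO core TGTTTAC, read as GTAAACA on the opposite strand. The 2 motifs do not overlap here. Where a gene had several starts, the window with the most matches is shown.
Bcl2, chr1:106714241-106714540, minus strand: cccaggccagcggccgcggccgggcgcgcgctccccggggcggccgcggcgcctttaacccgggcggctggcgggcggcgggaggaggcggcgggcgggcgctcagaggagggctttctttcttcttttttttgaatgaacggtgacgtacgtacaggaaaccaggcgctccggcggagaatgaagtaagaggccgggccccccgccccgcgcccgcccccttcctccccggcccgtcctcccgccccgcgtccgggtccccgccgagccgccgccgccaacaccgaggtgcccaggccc
Bcl2l1, chr2:152831679-152831978, minus strand: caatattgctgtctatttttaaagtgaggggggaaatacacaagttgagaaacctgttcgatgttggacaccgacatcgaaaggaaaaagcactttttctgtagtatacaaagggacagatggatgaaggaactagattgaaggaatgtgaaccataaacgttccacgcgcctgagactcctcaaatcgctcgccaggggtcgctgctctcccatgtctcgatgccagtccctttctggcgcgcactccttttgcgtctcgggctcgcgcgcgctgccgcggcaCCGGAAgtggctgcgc
Mcl1, chr3:95658471-95658770, plus strand: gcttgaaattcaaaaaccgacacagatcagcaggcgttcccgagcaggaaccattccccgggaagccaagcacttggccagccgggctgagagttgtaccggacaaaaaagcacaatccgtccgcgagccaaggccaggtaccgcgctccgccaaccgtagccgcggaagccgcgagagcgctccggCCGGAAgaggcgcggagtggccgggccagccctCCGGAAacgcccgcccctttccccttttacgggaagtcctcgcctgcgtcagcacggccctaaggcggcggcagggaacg
Bcl2l11, chr2:128125788-128126087, plus strand: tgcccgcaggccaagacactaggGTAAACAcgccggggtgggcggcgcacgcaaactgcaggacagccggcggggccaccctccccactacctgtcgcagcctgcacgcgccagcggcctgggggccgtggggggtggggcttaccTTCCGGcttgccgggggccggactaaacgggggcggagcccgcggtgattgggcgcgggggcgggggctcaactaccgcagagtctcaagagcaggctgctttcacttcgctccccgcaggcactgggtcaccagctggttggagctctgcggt
The Mcl1 window held 2 ETS cores, the Bcl2l1 window 1, and the Bcl2l11 window 1 ETS and 1 FOXO core, while the Bcl2 window held neither run of letters. Over all 9 genes the ETS core stood in a window of 5 genes (5 of 17 windows) and the FOXO core in a window of 2 genes (2 of 17 windows, Bcl2l11 and Bbc3). Among all 32851 promoter windows of the same length, 14.9% held the ETS core and 3.65% the FOXO core. These matches describe letters, and binding was not measured.

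Values are log2 intensities of the authors' normalized signal, so 1 unit is a 2-fold difference. Levels of different probe sets are not on a common scale and are compared only between samples. Each gene is led by its probe set of highest mean, and p-values are from limma, adjusted over the 28989 probe sets tested in each comparison, with an adjusted p below 0.05 called. Of the 31 probe sets 26 were tested, including the leading one of each gene, and 5 dim ones were not (3 of Bcl2l1, 1 of Bak1 and 1 of Bmf). Replicate arrays correlated at 0.912 to 0.996. Markers of the labelled cell type were highest in that type for 5 of 5 GMP and 5 of 5 pro-B genes measured. The same held for 6 of 6 CD4 T and 5 of 5 NK genes. It held for 3 of 4 HSC genes (Slamf1 was highest in CD4 T cells) and 3 of 4 CLP genes (Il7r was highest in CD4 T cells). None of the 4 multipotent markers was highest in MPP. Cd34 was highest in LMPP (11.64), Flt3 in CLP (11.26), and Kit (10.71) and Meis1 (11.22) in HSC. CLP arrays stood apart, with a root-mean-square SD of 0.570 against 0.203 in GMP, and actin 3' signal exceeded 5' signal by 5.20, 3.26 and 5.27 units on CLP arrays 1, 2 and 3. That gap was 6.44 to 6.68 in GMP, 0.97 and 1.23 in CD4 T cells and 1.88 to 4.07 elsewhere. In bulk RNA, fewer cells expressing a gene and less RNA per cell cannot be told apart.

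All 9 leading probe sets differed among the 9 groups in the F test, which called 73.4% of all probe sets tested. The members separated more by how far they moved. Between the highest and the lowest group mean, Bcl2l11 spanned 4.61 units and Bcl2 3.98, which put them at the 96.1 and 93.7 percentiles of all tested probe sets. Bmf spanned 2.34, Bid 2.02 and Bak1 1.80. Mcl1 (1.52), Bcl2l1 (1.50), Bbc3 (1.23) and Bad (1.01) lay below the median span of 1.63. Of the 36 pairs of groups, 28 were called for Bcl2l11, 25 for Bcl2, 22 for Bmf, 14 for Mcl1, 13 for Bak1, 11 for Bcl2l1, 10 for Bad, 6 for Bbc3 and 5 for Bid. The share of all probe sets called in a pair ran between 0.907% and 46.2%, with a median of 28.6% over the pairs.

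**Figure D1:**
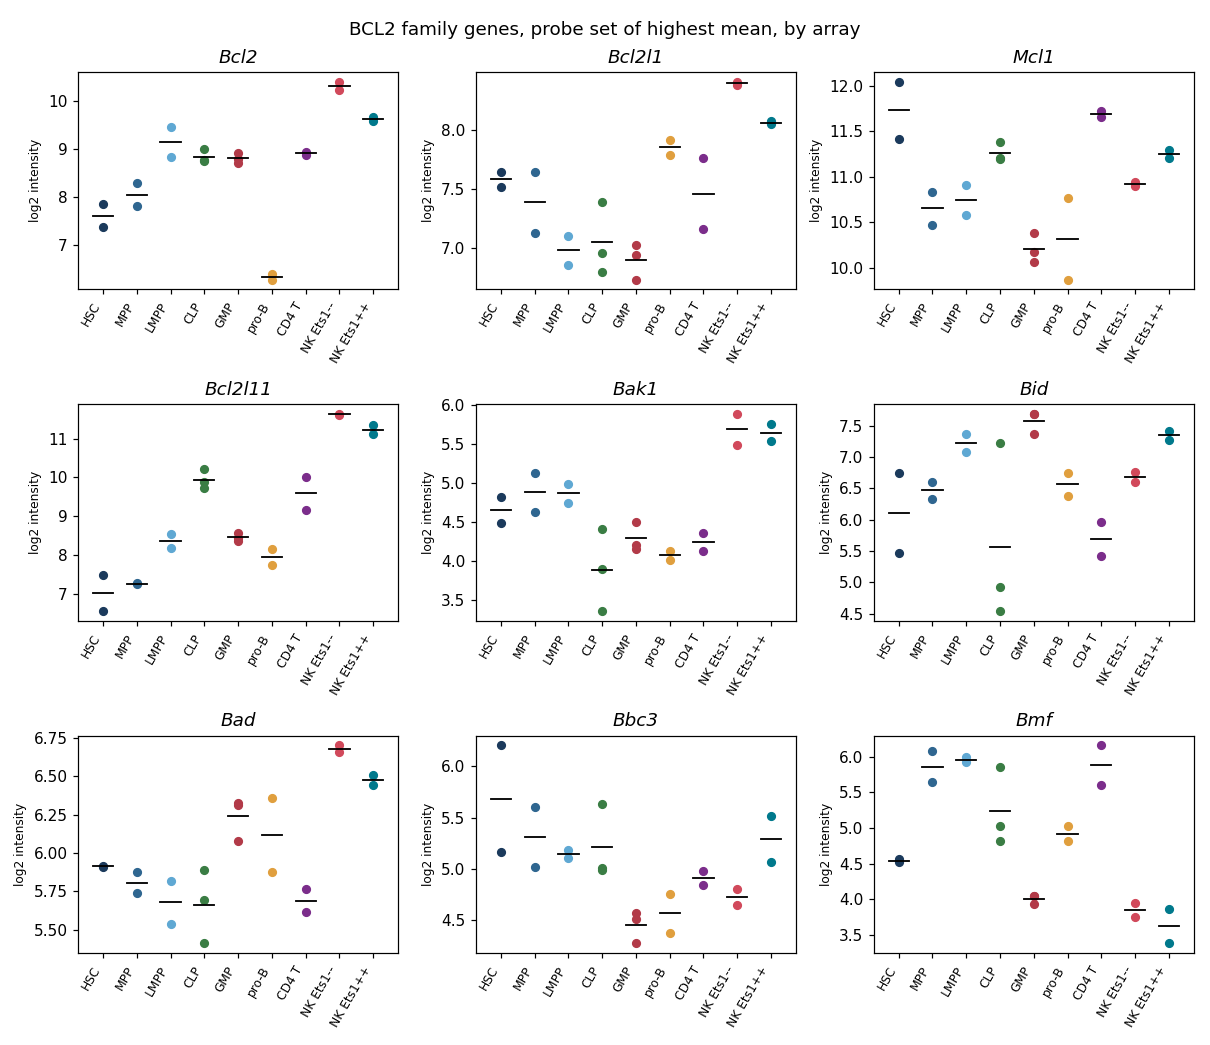
Log2 intensity (vertical axes) of the leading probe set of each of the 9 BCL2 family genes, 1 panel a gene, by group (horizontal axes). Points are single arrays and bars are group means. Bcl2 and Bcl2l11 spread over about 4 units with the NK groups at the top, while the group means of Bad and Bbc3 span 1.01 and 1.23 units.

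Among the survival genes, Bcl2 had the widest range on the leading sets, with NK cells highest and pro-B cells lowest. Its leading probe set (1457687_at) stood at 7.36 and 7.85 in HSC, 7.80 and 8.27 in MPP, 8.82 and 9.46 in LMPP, and 8.76, 9.002 and 8.73 in CLP. It was 8.92, 8.79 and 8.70 in GMP, 6.27 and 6.38 in pro-B cells, and 8.94 and 8.87 in CD4 T cells. Ets1-- NK cells had 10.22 and 10.40, and Ets1++ NK cells 9.57 and 9.66. No pro-B array reached any array of another group, and no array of another group reached the NK arrays. Pro-B cells were called below each of the other 8 groups, with a difference of -2.51 ± 0.25 (SE) from CLP (adjusted p = 1.45e-06). Ets1-- NK cells were called above 7 of the other 8 groups and Ets1++ NK cells above 5. In the order Ets1-- NK, Ets1++ NK, LMPP, CD4 T, CLP, GMP, MPP, HSC, pro-B, the only neighbours whose difference passed the test were GMP over MPP (0.77 ± 0.25, adjusted p = 0.0269) and HSC over pro-B (1.28 ± 0.27, adjusted p = 0.00199).

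Of the other 4 Bcl2 probe sets 3 also put pro-B cells lowest, and 1440770_at put them next above HSC. Their group means correlated with the leading set at 0.778 to 0.841 over the 9 groups. They disagreed on the step into CLP and GMP. In CLP 1440770_at averaged 8.41, against 6.57 in LMPP, and was called higher (1.84 ± 0.30, adjusted p = 0.000456), where the leading set differed by -0.31 and was not called. In GMP minus LMPP the set 1440770_at was called higher (1.19 ± 0.30) and 1437122_at lower (-1.92 ± 0.45). The pro-B minus CLP difference was called lower on 4 of the 5 Bcl2 probe sets, with -2.45 to -3.18 on the 3 beside the leading one.

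Bcl2l1, which keeps erythroid cells, platelets and immature lymphocytes alive, varied less and in another order. Its leading set (1420888_at) read 7.65 and 7.52 in HSC, 7.13 and 7.65 in MPP, 6.86 and 7.10 in LMPP, and 7.39, 6.96 and 6.80 in CLP. GMP had 6.94, 7.03 and 6.73, pro-B cells 7.79 and 7.92, and CD4 T cells 7.16 and 7.76. Ets1-- NK cells had 8.39 and 8.41 and Ets1++ NK cells 8.05 and 8.08, above every array of the other populations. Pro-B cells, the lowest group for Bcl2, were called above CLP for Bcl2l1 (0.81 ± 0.26, adjusted p = 0.0266). That call was lost after repeated quantile normalization (0.40) and with the mean of all 4 probe sets (0.22), of which 3 never exceeded the array median. It also ended without either pro-B array (0.74 and 0.87) or CLP array 3 (0.68), and with CLP array 2 alone (0.90, adjusted p = 0.055). No difference between neighbours in the Bcl2l1 order passed the test.

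Mcl1, a short-lived survival protein, read highest in HSC and CD4 T cells and lowest in GMP and pro-B cells. The leading set (1456243_x_at) had 12.04 and 11.42 in HSC, 10.47 and 10.84 in MPP, 10.91 and 10.58 in LMPP, and 11.38, 11.21 and 11.19 in CLP. It had 10.38, 10.18 and 10.06 in GMP, 9.87 and 10.77 in pro-B cells, 11.72 and 11.66 in CD4 T cells, 10.90 and 10.95 in Ets1-- NK cells, and 11.20 and 11.29 in Ets1++ NK cells. HSC were called above 5 groups and CD4 T cells above 4, while GMP were called below 5. The summed level of the 3 cycling-cell markers measured was 8.49 and 8.63 in CD4 T cells and 8.92 and 10.94 in HSC, against 11.2 to 13.2 in every other group, and its part in the Mcl1 result was not tested.

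The 6 Mcl1 probe sets split over CLP. The leading set and 2 others ending in _x_at, which followed it at 0.985 and 0.968 over the group means, placed CLP above LMPP, and 1456381_x_at was called higher (0.84 ± 0.27, adjusted p = 0.0341). In contrast, 1448503_at averaged 9.43 in CLP and 11.31 in LMPP, a called difference of -1.88 ± 0.27. The set 1416881_at averaged 5.44 in CLP and 8.03 in LMPP (-2.58 ± 0.47, adjusted p = 0.00101). The remaining set, 1416880_at, also averaged lower in CLP (8.96) than in LMPP (9.69). The split carried into pro-B minus CLP, where the leading set was called lower (-0.94 ± 0.25) and 1416881_at higher (2.72 ± 0.47, adjusted p = 0.000326). The 1416881_at values on CLP arrays 1, 2 and 3 were 5.44, 6.46 and 4.42, so array 2, with the smallest actin 3' excess of the 3, was the highest. The part of RNA quality in this split was not tested, and a direction for Mcl1 at the CLP stage depends on the probe set. MPP minus HSC was lower on all 6 Mcl1 probe sets and called on 4 of them, with -1.08 to -1.30 log2 units.

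**Figure D2:**
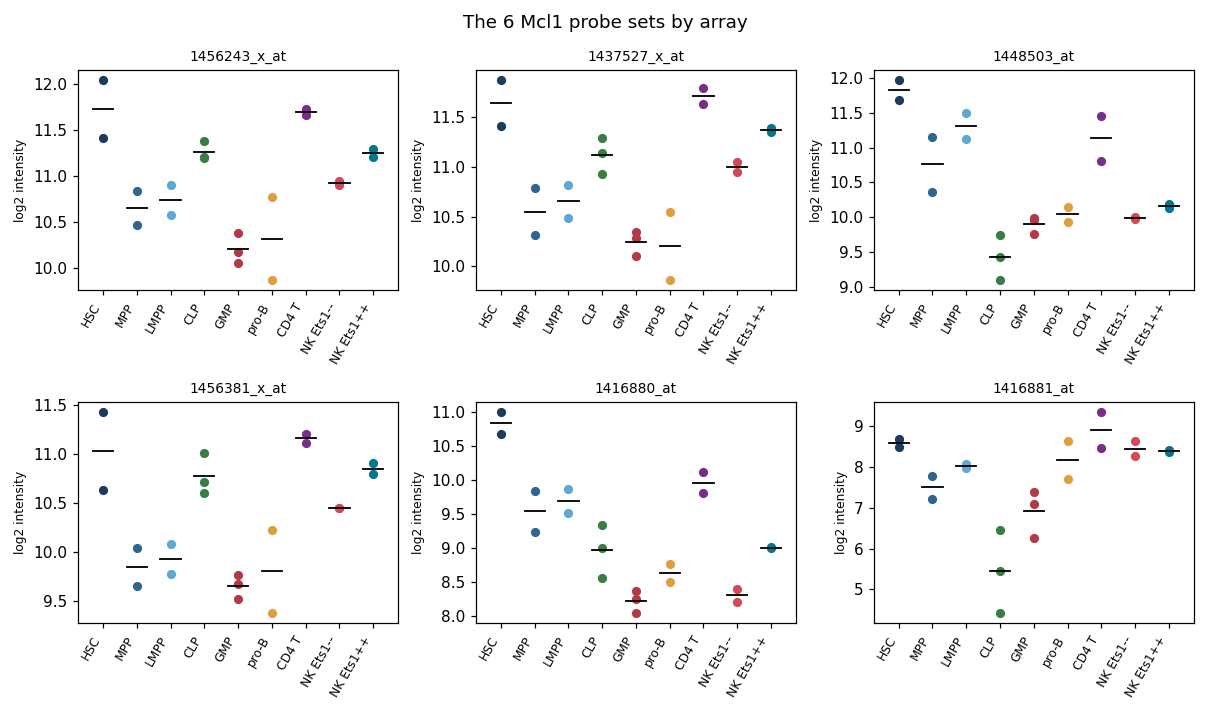
Log2 intensity (vertical axes) of the 6 Mcl1 probe sets by group (horizontal axes), with points for single arrays and bars for group means. The 3 sets ending in _x_at hold CLP above LMPP, while 1448503_at and 1416881_at put CLP below LMPP by 1.88 and 2.58 units. The set 1416880_at also averages lower in CLP (8.96) than in LMPP (9.69).

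Bak1, which forms pores in the outer mitochondrial membrane once activated, was dim throughout and highest in NK cells. The leading set (1418991_at) had 5.49 and 5.89 in Ets1-- NK cells, 5.54 and 5.76 in Ets1++ NK cells and 3.35 to 5.13 on the other 16 arrays. No array of another group reached the NK arrays, and each NK genotype was called above 5 groups. CLP had 3.90, 3.35 and 4.42, against 4.99 and 4.75 in LMPP, and was called lower (-0.98 ± 0.28, adjusted p = 0.0195). That call ended without CLP array 2 (-0.71, adjusted p = 0.055), LMPP array 1 (-0.86) or LMPP array 2 (-1.10).

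Of the BH3-only genes, Bcl2l11 changed most, with low values in stem cells and multipotent progenitors, higher ones in CLP and CD4 T cells, and the top in NK cells. Its leading set (1456005_a_at) read 7.48 and 6.54 in HSC, 7.26 and 7.25 in MPP, 8.54 and 8.19 in LMPP, and 9.88, 9.72 and 10.22 in CLP. It read 8.57, 8.36 and 8.44 in GMP, 8.15 and 7.75 in pro-B cells, and 10.01 and 9.17 in CD4 T cells. Ets1-- NK cells had 11.64 and 11.61 and Ets1++ NK cells 11.11 and 11.34. CLP, CD4 T and NK arrays all lay above every array of HSC, MPP, LMPP, GMP and pro-B cells. Ets1++ NK cells exceeded HSC by 4.21 ± 0.32 (adjusted p = 1.44e-08), and each NK genotype was called above all 7 other populations. Differences between neighbours in the order passed the test at Ets1++ NK over CLP (adjusted p = 0.00201) and at CD4 T over GMP (1.13 ± 0.30, adjusted p = 0.00595). The other 4 Bcl2l11 probe sets followed the leading one at 0.807 to 0.975 over the group means and all placed NK cells highest.

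Bcl2 and Bcl2l11, whose proteins bind each other, ran together over much of the panel. Across the 9 group means their leading sets correlated at 0.78, as a description over groups that share arrays and normalization. Pro-B cells had 6.32 ± 0.08 for Bcl2 and 7.95 ± 0.28 for Bcl2l11 (SD, n = 2), against 8.83 ± 0.15 and 9.94 ± 0.25 in CLP (n = 3), so both were lower at this step. On the leading sets GMP kept a Bcl2 level of 8.80 ± 0.11 next to 8.83 ± 0.15 in CLP. Bcl2l11 was 8.46 ± 0.11 in GMP, against 9.94 ± 0.25 in CLP. Other Bcl2 sets averaged higher in CLP than in GMP, with 8.41 and 7.76 on 1440770_at and 6.61 and 5.82 on 1437122_at. The set 1443837_x_at averaged 6.40 in CLP and 4.67 in GMP, and 1422938_at 5.81 and 5.80. On the leading sets Bad and Bmf ran opposite to each other (-0.89), the most negative value among all pairs of members. The other tested sets of Bad and Bmf followed their leading ones at only 0.612 and 0.176, so this value describes the leading sets alone.

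**Figure D3:**
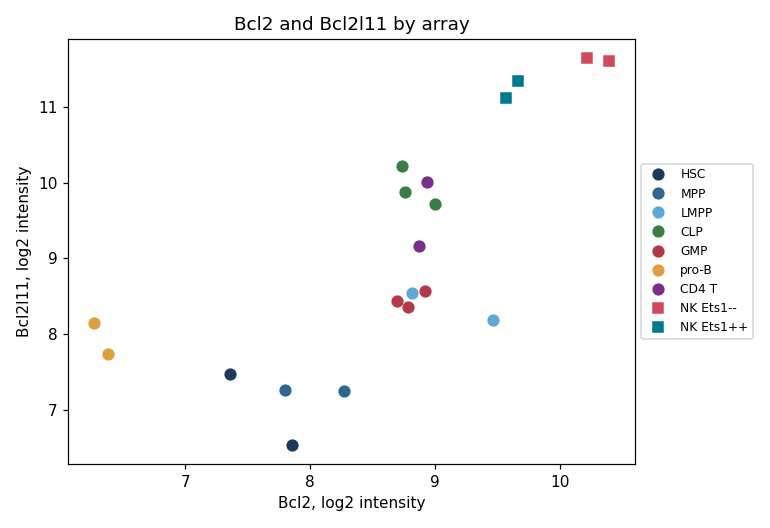
Log2 intensity of the leading Bcl2 probe set (horizontal axis) against that of Bcl2l11 (vertical axis), 1 point an array, coloured by group. The NK arrays sit at the upper right, pro-B arrays at the far left, and CLP and GMP arrays share a Bcl2 level near 8.8 but differ in Bcl2l11.

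Bid, which caspase cleavage turns into an activator of the effectors, read highest in GMP and most unevenly in CLP on its leading set. The leading set (1417045_at) had 7.69, 7.68 and 7.36 in GMP, 7.38 and 7.08 in LMPP, 7.42 and 7.27 in Ets1++ NK cells, and 6.76 and 6.61 in Ets1-- NK cells. HSC had 5.46 and 6.74, MPP 6.33 and 6.60, pro-B cells 6.75 and 6.39, and CD4 T cells 5.96 and 5.42. CLP had 4.53, 7.23 and 4.92, so array 2 lay among the LMPP values and the other arrays below every array of the other groups. GMP were called above 3 groups and CLP below 3. With CLP array 2 alone, CLP minus LMPP was -0.00 (adjusted p = 0.998) and Ets1++ NK minus CLP was 0.12 (adjusted p = 0.866). The other sets followed the leading one at 0.616 and 0.192. The set 1447873_x_at was called higher in GMP than in LMPP (1.75 ± 0.35, adjusted p = 0.00132). That set averaged highest in NK cells, with 6.09 in Ets1++ and 5.94 in Ets1-- cells, against 5.47 in GMP. The difference of Ets1-- NK cells from GMP was not called (0.46 ± 0.35). The set 1448560_at was the 1 tested member probe set without a call in the F test (adjusted p = 0.622).

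Bad, which growth factor signals keep inactive by phosphorylation, was highest in NK cells, at 6.66 and 6.70 in Ets1-- and 6.51 and 6.44 in Ets1++ cells, against 5.41 to 6.36 on the other 16 arrays. On this set (1416582_a_at) the NK arrays did not overlap the others, and the genotypes were called above 5 and 4 groups. The other Bad set, 1416583_at, was highest in pro-B cells (6.04 and 6.27), and its NK values of 6.48 and 5.74 in Ets1-- and 5.95 and 6.29 in Ets1++ cells overlapped those of pro-B and CD4 T cells. Bbc3, a target of p53, had 6.20 and 5.17 in HSC, against 4.51, 4.58 and 4.28 in GMP. It was called higher in HSC than in 3 groups and lower in GMP than in 4, and HSC array 2 lay among the MPP and LMPP values. Bmf, which in healthy cells is tied to the cytoskeleton, was highest on its leading set in LMPP (6.00 and 5.92), CD4 T cells (6.16 and 5.60) and MPP (5.65 and 6.07). It was 4.82, 5.03 and 5.85 in CLP, 4.81 and 5.03 in pro-B cells, 4.52 and 4.57 in HSC, 3.93, 4.04 and 4.04 in GMP, 3.95 and 3.74 in Ets1-- NK cells, and 3.87 and 3.38 in Ets1++ NK cells. GMP and NK arrays lay below every other array on the leading Bmf set. The other tested Bmf set, 1454880_s_at, followed the leading one at only 0.176, with CLP values of 5.68, 6.00 and 3.68. It was called higher in CLP than in LMPP (1.79 ± 0.46, adjusted p = 0.0105) where the leading set was not called. On 1454880_s_at Ets1-- NK cells averaged 4.78, below CLP (5.12) and CD4 T cells (4.85). They lay above pro-B cells (4.09), HSC (3.66), LMPP (3.33), MPP (3.24) and GMP (3.19). Ets1++ NK cells averaged lowest on that set (2.99). No difference between neighbours in the orders of Bak1, Mcl1 (leading sets), Bid, Bad, Bbc3 or Bmf passed the test, although the arrays of some neighbours did not overlap. Among these were Ets1++ NK over MPP for Bak1 (0.77 ± 0.31, adjusted p = 0.0594) and HSC over GMP for Bmf (0.54 ± 0.29, adjusted p = 0.167).

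The steps of development were then compared, each with the share of all probe sets called. Unless stated otherwise, members were counted by their leading sets here and below. From HSC to MPP, 2 of 9 members were called, where 3.45% of all probe sets were. Bmf was higher in MPP (1.32 ± 0.31, adjusted p = 0.0238) and Mcl1 lower (-1.08 ± 0.28, adjusted p = 0.0395). The Bmf call ended whichever array was left out (adjusted p 0.0822 to 0.141), with a difference of 1.11 to 1.53, and the mean of the Bmf probe sets differed by 0.27 (adjusted p = 0.465). The Mcl1 call ended without either MPP array and without HSC array 1 (-0.76). Klf1, the 1 erythroid marker measured, had 5.28 and 7.19 in MPP, against 6.61 and 9.47 in HSC, and was at most 5.87 in all other groups. Its part in these differences was not tested. From MPP to LMPP no member was called by limma, where 0.907% of all probe sets were, and 2 members had an unadjusted p below 0.05. These were Bcl2 (1.10 ± 0.27, adjusted p = 0.076) and Bcl2l11 (1.11 ± 0.32, adjusted p = 0.192). Over the longer step from HSC to LMPP, where 7% of all probe sets were called, both were called higher in LMPP. Bcl2 differed by 1.53 ± 0.27 (adjusted p = 0.00136) and Bcl2l11 by 1.35 ± 0.32 (adjusted p = 0.0138). Bmf was also called higher over this step (1.42 ± 0.31, adjusted p = 0.00756) and Mcl1 lower (-0.98 ± 0.28, adjusted p = 0.0388).

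From LMPP to CLP, 3 of 9 members were called, where 21.3% of all probe sets were. Bcl2l11 was higher in CLP (1.58 ± 0.30, adjusted p = 0.00134), and Bak1 and Bid were lower, the Bid call resting on CLP arrays 1 and 3. Leaving out CLP array 1 (-1.16, adjusted p = 0.148), CLP array 3 (-1.35) or either LMPP array (-1.52 and -1.81) also ended the Bid call. From LMPP to GMP only Bmf was called on its leading set, where 24.5% of all probe sets were. Its level was 4.003 ± 0.07 in GMP (SD, n = 3), against 5.96 ± 0.05 in LMPP (n = 2), a difference of -1.96 ± 0.29 (SE, adjusted p = 7.45e-05). Of the 26 tested member probe sets, 2 were called higher in GMP and 4 lower. Mcl1 averaged 9.90 in GMP and 11.31 in LMPP on 1448503_at, and 8.22 and 9.69 on 1416880_at. Both branches leave LMPP, so the 2 comparisons share those arrays, and Bcl2l11 differed by 1.58 in CLP and by 0.09 in GMP.

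From CLP to pro-B cells 4 of 9 members were called, where 30.0% of all probe sets were. Bcl2 (-2.51 ± 0.25), Bcl2l11 (-1.997 ± 0.30, adjusted p = 9.21e-05) and the leading Mcl1 set (-0.94 ± 0.25, adjusted p = 0.00987) were lower, and Bcl2l1 was higher. The Mcl1 call ended without pro-B array 1 (-0.49, adjusted p = 0.182). With CLP array 2 as the only CLP array, 2 of the 4 calls stayed, those of Bcl2 and Bcl2l11, and Mcl1 was -0.89 (adjusted p = 0.0781). Pro-B markers summed to 12.42 to 13.55 in pro-B cells and to 10.99 to 11.44 in CLP, against 6.70 and 6.87 in LMPP. The 2 plasma cell markers measured, Jchain and Sdc1, summed to 11.44 and 11.73 in pro-B cells, against 6.24, 7.41 and 6.54 in CLP. Jchain averaged 11.54 in pro-B cells and 3.11 in CLP, while Sdc1 averaged 6.59 in pro-B cells and 6.60 in CLP. The part of these markers in the differences was not tested.

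Mature lymphocytes were set against CLP and each other. CD4 T cells had no member called on its leading set against CLP, where 42.4% of all probe sets were called by limma, and 1 member, Bmf, had an unadjusted p below 0.05 (0.65 ± 0.29, adjusted p = 0.0773). Of the 26 tested member probe sets, however, 6 were called, all higher in CD4 T cells and none of them a leading set. They were the 3 Mcl1 sets not ending in _x_at (0.99 to 3.46), Bcl2 1422938_at (0.80 ± 0.30, adjusted p = 0.0365), Bcl2l11 1435448_at and Bad 1416583_at. The Bcl2l11 set differed by 0.67 ± 0.24 (adjusted p = 0.0309), where the leading one differed by -0.36. The Bad set was higher by 1.10 ± 0.27 (adjusted p = 0.00343), as it was in pro-B cells against CLP (1.36 ± 0.27, adjusted p = 0.00109). Ets1++ NK cells had 7 of 9 called against CLP, where 46.2% of all probe sets were. Bcl2l11 (1.28 ± 0.30), Bak1 (1.76 ± 0.28), Bid (1.78 ± 0.54), Bcl2l1 (1.01 ± 0.26), Bad (0.81 ± 0.23) and Bcl2 (0.79 ± 0.25) were higher in NK cells, and Bmf was lower (-1.61 ± 0.29, adjusted p = 0.00022). The calls of Bcl2 and Bid ended without either Ets1++ NK array (Bcl2 0.74 and 0.83, Bid 1.71 and 1.86), that of Bid also without CLP array 1 (1.27), and that of Bad without Ets1++ NK array 1 (0.77). Repeated quantile normalization moved the median of all probe sets by -0.14 in this comparison and left 3 members called (Bak1, Bid and Bmf). The other 4 differences were then Bcl2 0.24, Bcl2l1 0.37, Bad 0.36 and Bcl2l11 0.77. The fit with CLP array 2 alone left 4 calls (Bcl2l1, Bcl2l11, Bak1 and Bmf). Against CD4 T cells 4 of 9 were called on their leading sets, where 23.1% of all probe sets were. Bcl2l11 (1.64 ± 0.32, adjusted p = 0.00109), Bak1 (1.40 ± 0.31) and Bad (0.78 ± 0.26) were higher in Ets1++ NK cells, and Bmf was lower (-2.26 ± 0.31, adjusted p = 3.16e-05). Over all 26 tested member probe sets, 10 were called higher in Ets1++ NK cells and 4 lower. Bcl2, Bid and Mcl1 were not called on their leading sets. On 1440770_at Bcl2 averaged 9.94 in Ets1++ NK cells and 8.41 in CD4 T cells. Bid averaged 6.09 and 3.45 on 1447873_x_at, and Mcl1 10.16 and 11.13 on 1448503_at. The Bad call ended whichever array was left out (adjusted p 0.0845 to 0.163). The neutrophil markers Ltf, Camp, Ngp and S100a8 summed to 13.03 and 13.08 in Ets1++ NK cells, against at most 7.48 in CLP and 6.47 in CD4 T cells. Their part in the NK differences from CLP and CD4 T cells was not tested.

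CD4 T cells and pro-B cells, which differ in maturity as well as lineage, differed for 4 of 9 members, where 25.9% of all probe sets were called. All 4 were higher in CD4 T cells, with Bcl2 at 2.58 ± 0.27 (adjusted p = 1.02e-06), Bcl2l11 at 1.64 ± 0.32 (adjusted p = 0.000867), Mcl1 at 1.37 ± 0.28 (adjusted p = 0.00111) and Bmf at 0.96 ± 0.31 (adjusted p = 0.0297). All 5 Bcl2 probe sets were called higher here, by 1.04 to 3.07. The Bmf call ended in 3 of the 4 fits that left out 1 array, with the lowest difference, 0.68, without CD4 T array 1. The plasma cell marker sum was 7.62 and 7.55 in CD4 T cells, against 11.44 and 11.73 in pro-B cells. The 2 macrophage markers, C1qa and C1qb, summed to 6.69 and 5.65 in CD4 T cells, against 4.46 and 4.32 in pro-B cells. Actin 3' excess was lower in CD4 T cells than in any other group. The part of these values in the differences was not tested.

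**Figure D4:**
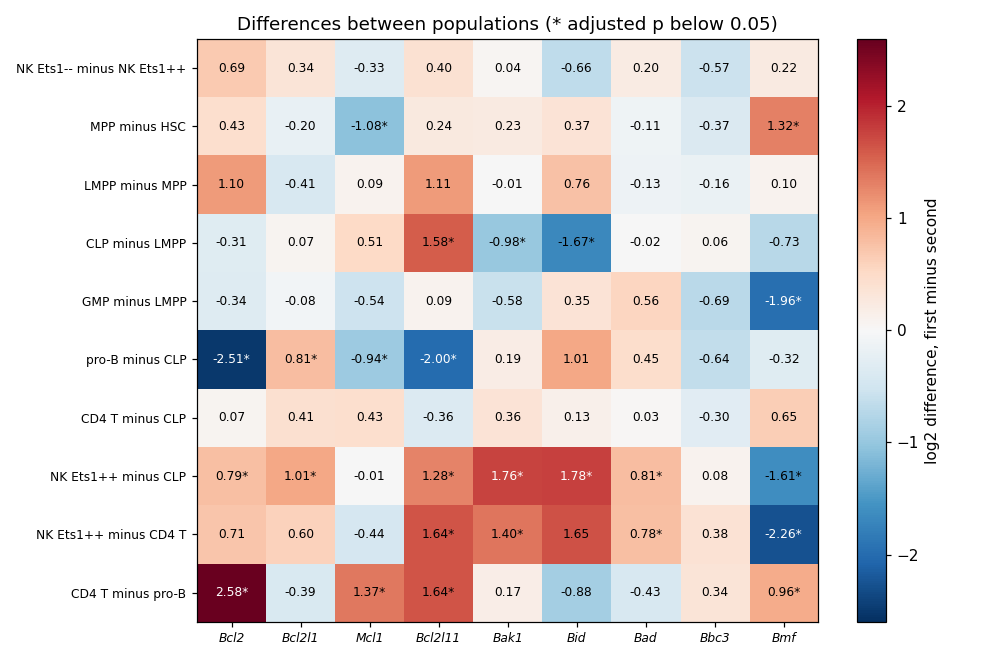
Log2 differences of the leading probe set of each gene (columns) in the 10 comparisons (rows), with an asterisk where the adjusted p was below 0.05. Bcl2 and Bcl2l11 hold the most negative values in pro-B minus CLP, and Bmf the most negative value in Ets1++ NK minus CD4 T.

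The last comparison asked whether loss of Ets1, the founding ETS transcription factor, went with a change of these genes in NK cells. Ets1 itself read 11.07 in Ets1-- cells and 11.39 in Ets1++ cells on its leading set (1426725_s_at, -0.33 ± 0.42, adjusted p = 0.899). Of its 4 sets only 1422027_a_at was called, at 6.87 in Ets1-- cells and 8.42 in Ets1++ cells (-1.55 ± 0.31, adjusted p = 0.00676). The other 3 sets, the leading one included, differed by -0.33 to -0.93 without a call. Where these sets lie relative to the deleted part of the gene was not analysed here. No member was called by limma between the genotypes, where 3.80% of all probe sets were. Of the 26 tested member probe sets 5 had an unadjusted p below 0.05, where 13.9% of all probe sets did.

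Bcl2 on its leading set had 10.22 and 10.40 in Ets1-- cells, against 9.57 and 9.66 in Ets1++ cells. The genotypes did not overlap, and the difference was 0.69 ± 0.27 (95% interval 0.11 to 1.27, adjusted p = 0.224). Array weights (adjusted p = 0.039) or a model of only the 4 NK arrays (adjusted p = 0.0263) brought this value past the threshold, while the mean of the 5 Bcl2 probe sets differed by 0.00 (adjusted p = 0.999). Over all alternatives run the adjusted p lay between 0.0263 and 0.999. The other 4 Bcl2 sets did not share a direction, with 0.06, 0.47 and 0.36 on 3 of them and -1.56 on 1443837_x_at, which had 7.65 and 5.44 in Ets1-- cells, against 8.15 and 8.05 in Ets1++ cells. Bcl2l11 differed by 0.34 to 0.84 on its 5 probe sets, each with the higher mean in Ets1-- cells, and none was called. For its leading set the interval ran from -0.28 to 1.08. Of all 26 sets, Bmf 1454880_s_at had the largest difference, with 4.29 and 5.26 in Ets1-- cells, against 2.74 and 3.25 in Ets1++ cells (1.79 ± 0.51, adjusted p = 0.0582). The leading Bmf set had 3.95 and 3.74 in Ets1-- cells, against 3.87 and 3.38 in Ets1++ cells (0.22 ± 0.31). Intervals for Mcl1 (-0.91 to 0.26), Bcl2l1 (-0.26 to 0.94), Bad (-0.34 to 0.74) and Bak1 (-0.60 to 0.69) all included 0, and changes of either sign within them are compatible with these 4 arrays. Bid (-1.91 to 0.59) and Bbc3 (-1.27 to 0.13) had wider intervals.

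The 4 neutrophil markers, Ltf, Camp, Ngp and S100a8, summed to 12.03 and 11.16 in Ets1-- NK cells, against 13.03 and 13.08 in Ets1++ NK cells and 10.9 to 11.1 in GMP, and the level in all other groups was at most 7.48. The NK marker sums were 14.63 and 14.53 in Ets1-- cells and 14.31 and 14.38 in Ets1++ cells. Of the 4 neutrophil markers Ltf was called lower in Ets1-- cells (-1.94 ± 0.32, adjusted p = 0.00147), and the other 3 differed by -1.37 to -1.47. The 5 GMP markers summed to 7.60 and 7.03 in Ets1-- NK cells, against 9.37 and 9.40 in Ets1++ NK cells and 14.87 to 14.90 in GMP. Of these, 4 were called lower in Ets1-- cells, namely Mpo (-3.59 ± 0.41, adjusted p = 2.73e-05), Prtn3 (-2.35 ± 0.37), Ctsg (-2.45 ± 0.48) and Elane (-1.33 ± 0.34). Csf1r, the fifth, was not called. The part of these myeloid marker differences in the values above was not tested.

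**Figure D5:**
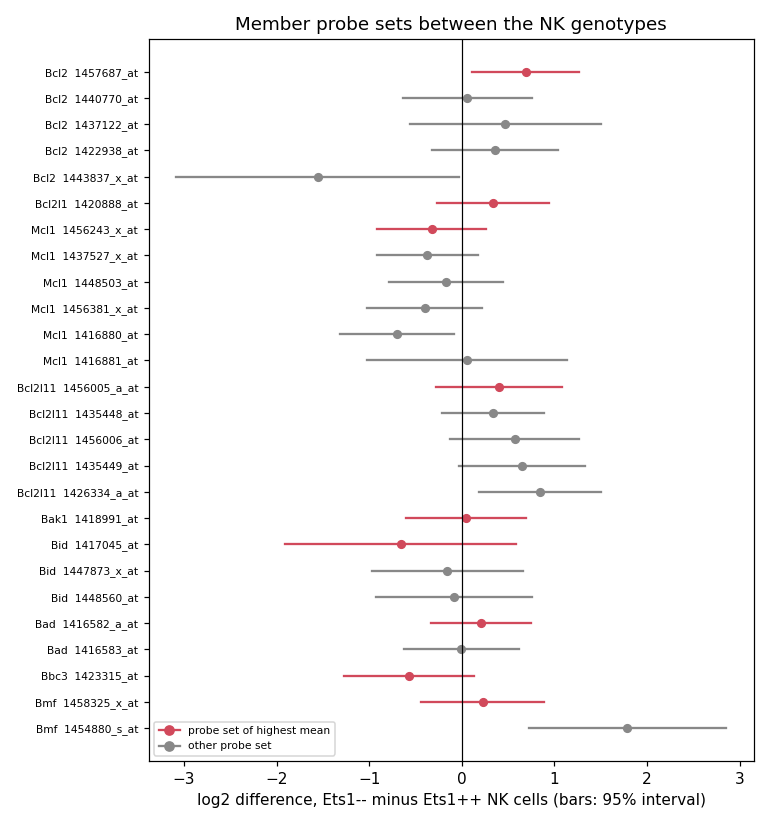
Log2 difference, Ets1-- minus Ets1++ NK cells (horizontal axis), of the 26 tested BCL2 family probe sets (vertical axis), with 95% intervals from limma. Most intervals cross 0, and the largest point is Bmf 1454880_s_at at 1.79.

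Other genes of mitochondrial apoptosis were followed as a list of 36, of which 28 had a probe set of their own and 26 were tested, and 23 of the 26 differed in the F test, which called 73.4% of all probe sets. The share of all probe sets called in a comparison is given in parentheses beside each count. The list's median difference ran from -0.40 in MPP minus HSC (all probe sets -0.06) to 0.34 in Ets1++ NK minus CLP (0.09). Between the NK genotypes (3.80%) and between LMPP and MPP (0.907%) none was called by limma, with 5 and 1 at an unadjusted p below 0.05. In MPP against HSC (3.45%) 1 was higher, Birc5 (survivin, a gene of dividing cells, 3.51 ± 0.58), and 1 lower, Foxo1 (-1.27 ± 0.32). In CLP against LMPP (21.3%) 1 was higher and 5 lower. Foxo1, a transcription factor known to switch on Bcl2l11, averaged 10.03 in CLP and 6.45 in LMPP (3.58 ± 0.29, adjusted p = 3.46e-07). Birc5 (-2.62 ± 0.53) and the outer membrane channel Vdac2 (-1.45 ± 0.31) were lower in CLP.

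In GMP against LMPP (24.5%) 4 list genes were higher and 4 lower, led by the apoptosome core Apaf1 (2.26 ± 0.37, adjusted p = 2e-04), the mitochondrial nuclease Endog (1.95 ± 0.40) and the mitochondrial flavoprotein Aifm1 (1.68 ± 0.35). In pro-B cells against CLP (30.0%) 7 were higher and 3 lower. Foxo3, the FOXO factor related to Foxo1, averaged 6.71 in pro-B cells and 9.03 in CLP (-2.32 ± 0.27, adjusted p = 6.77e-06), and Birc5 (3.54 ± 0.53) and Endog (2.39 ± 0.40) were higher. CD4 T cells against CLP (42.4%) had 9 list genes higher and 5 lower. The channel Vdac1 (-1.33 ± 0.18, adjusted p = 1.94e-05) and Foxo3 (-1.52 ± 0.27) were lower in CD4 T cells, and the inhibitor of apoptosis Birc3 was higher (1.85 ± 0.33).

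Ets1++ NK cells against CLP (46.2%) had 7 list genes higher and 3 lower, led by Endog (3.41 ± 0.40, adjusted p = 2.62e-06), Birc5 (3.43 ± 0.53) and Apaf1 (2.06 ± 0.37). Against CD4 T cells (23.1%) 6 were higher and 2 lower, led by Birc5 (4.72 ± 0.58), Vdac1 (1.08 ± 0.20) and Foxo3 (1.49 ± 0.29). In CD4 T cells against pro-B cells (25.9%) 5 were higher and 6 lower, led by Birc5 (-4.83 ± 0.58, adjusted p = 4.64e-06), Birc3 (2.80 ± 0.36) and the BCL2 relative Bok (-2.38 ± 0.35).

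The genes with group means most like each member were found by Pearson correlation over the 9 groups among 13477 other genes. They were Spin1 (0.94), Rtn3 and Gramd1b (both 0.93) for Bcl2, Ttll12 (0.95), Arpc4 and Rassf7 (both 0.93) for Bcl2l1, and Ezh1 (0.95), D930028M14Rik (0.94) and Patj (0.93) for Mcl1. For Bcl2l11 they were Prag1 (0.99), Poldip3 (0.98) and Gsk3b (0.97). Bak1 was closest to Ackr1 (0.97), Map7d1 and Dcxr (both 0.95), and Bid to Gng10, Slc35b4 (both 0.91) and Irak1bp1 (0.90). Bad was closest to Dennd4a (0.99), Adap1 and Ak3 (both 0.97), Bbc3 to Pip5k1c (0.97), Cabin1 (0.96) and Tln1 (0.95), and Bmf to D830025C05Rik, Kcna3 and Psg23 (each 0.94). These correlations describe 9 points, and all groups share the same normalization.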

How the data were processed

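Bone marrow populations were profiled on 20 arrays in 9 groups. Per the labels, RNA was extracted with a micro-scale column kit, amplified in 2 rounds and biotin-labelled. The authors deposited linear intensities, made with RMA per the submitters' processing notes (version not given in the sources used here). Their log2 was taken, since the design had assumed log2 values. Array medians were 3.78 to 4.04, and 0 replicate columns were identical. Testing was limited to probe sets that exceeded the array median on 2 arrays or more, which kept 28989, left out 16048 dim ones, and excluded 64 control probe sets. The comparisons used limma 3.58.1 under R 4.3.3 (lmFit, and eBayes with an intensity trend) in 1 model with 11 residual degrees of freedom and Benjamini-Hochberg adjustment over all probe sets tested, after testing on simulated data. The number of arrays, 2 or 3 a group, limits the precision. The labels do not say that replicates were separate animals, and p-values therefore reflect only the spread between the samples given, which may be technical.

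Gene names came from the platform table, where 34958 probe sets had 1 symbol, 932 several and 9211 none here, and positions from RefSeq (GRCm38.p6), to which 34754 matched. Named genes were the members, up to 3 called genes of lowest adjusted p per comparison from the apoptosis list, and the 3 genes most like each member. The members and lists were chosen with earlier results of these data known, and the 2 promoter motifs after other motifs had been looked at. Alternatives were other filters, gene tables, no trend, quantile normalization, compared arrays alone, the replicate block, array weights, leaving out each array, and CLP array 2 alone.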

Additional observations from a re-analysis of the deposited data

How the results depend on the processing

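Of the 34 member differences followed over 482 settings, 404 kept their direction and side of the threshold. A further 71 lost their call (31 when an array was left out, 40 otherwise), 3 gained one and 4 reversed. The 34 include the NK genotype differences of all 9 members, which were not called in the main fit and so had no call to lose. Reversed were Mcl1 in pro-B minus CLP with the mean of probe sets (0.030), Bak1 between the NK genotypes without Ets1-- replicate 2 (-0.16) or Ets1++ replicate 1 (-0.07), where leaving out arrays gave -0.16 to 0.24, and Bmf without Ets1++ replicate 2 (-0.019), where it gave -0.019 to 0.47. The cause was not tested. Members called, of 9, changed in these cases among others. For the NK genotypes 1 was called with the mean of probe sets (Bmf, 0.76, adjusted p = 0.0226 by limma), 1 with array weights and 1 on the compared arrays only. In MPP minus HSC it was 1 with no filter, 1 with the mean of probe sets, 1 after quantile normalization, and 0 with array weights or on compared arrays only. In LMPP minus MPP it was 1 with the gene table, 1 with the replicate block and 2 with array weights. CLP minus LMPP had 0 on compared arrays only, and 4 after quantile normalization, which added Mcl1 (0.82, adjusted p = 0.0105). GMP minus LMPP had 2 with the mean of probe sets, 2 after quantile normalization, 5 with array weights and 5 on compared arrays only. Pro-B minus CLP had 2 on compared arrays only and 2 with CLP array 2 alone. CD4 T minus CLP had 2 with the mean of probe sets, 1 with the replicate block and 2 with CLP array 2 alone. Ets1++ NK minus CLP had 3 after quantile normalization, 3 on compared arrays only and 4 with CLP array 2 alone. Ets1++ NK minus CD4 T had 7 with array weights and 7 on compared arrays only. CD4 T minus pro-B had 3 after quantile normalization, without Bmf (0.75, adjusted p = 0.141). Leaving out each array gave 0 to 0 for the NK genotypes, 0 to 1 for MPP minus HSC, 0 to 0 for LMPP minus MPP, 1 to 3 for CLP minus LMPP, 1 to 1 for GMP minus LMPP, 2 to 5 for pro-B minus CLP, 0 to 1 for CD4 T minus CLP, 4 to 7 for Ets1++ NK minus CLP, 3 to 3 for Ets1++ NK minus CD4 T, 3 to 4 for CD4 T minus pro-B and 8 to 9 for the F test. Replicate numbers were not used to pair the samples in the main model. Each comparison shares 2 numbers, and deviations of same-numbered arrays correlated at -0.13 to 0.33, highest in MPP minus HSC. Where both groups have 2 arrays, the 2 correlations are the same value, so this check cannot exclude pairing. With the number as a block, 1 member was called in LMPP minus MPP and 1 in CD4 T minus CLP. Bak1, Bmf and the 3 untested Bcl2l1 sets lay near or below the array median, and low signal over background limits what they can show.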
